A study of Mus musculus with 4 samples.

Results

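The Wnt pathway genes described here are the Wnt ligands, their Frizzled receptors and LRP co-receptors, the Dishevelled, Axin, Apc and β-catenin genes that relay the signal, the TCF factors, and 3 genes that act on ligands or receptors. The rule takes them by symbol from the array's gene table and uses no measured value, though it was written with earlier results of these data known. This rule found 45 genes, measured by 46 probe sets, among the 19938 genes with a probe set of their own. A further gene the rule names, Tcf7, had no probe set assigned to it alone and was not analysed here. Fzd10os, an antisense RNA next to Fzd10, has a symbol that fits the same pattern and is counted among the 45.

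Gene expression was measured on 4 whole-transcript arrays, 2 for each cell type, MEL and ES-EP. MEL cells are a mouse erythroleukemia line, here the clone DS19 carrying a stably introduced GATA-1/ER fusion (GATA-1 joined to the ligand-binding part of the estrogen receptor), kept in serum-containing DMEM with puromycin. ES-EP are non-leukemic erythroid progenitors derived from mouse embryonic stem cells and kept in StemPro34 medium with erythropoietin, IGF-1, dexamethasone, SCF and β-mercaptoethanol. Both were proliferating when RNA was taken, and the arrays of each, A and B, came from duplicate cultures. Every MEL array therefore came from 1 clone with the fusion, in another medium than every ES-EP array, and cell type, fusion, selection and medium cannot be told apart in any difference given here.

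In the Wnt pathway, a secreted Wnt protein, made active by a lipid that Porcupine adds, binds a Frizzled receptor and an LRP5 or LRP6 co-receptor on the receiving cell. Without a ligand, a destruction complex of Axin, APC and the kinases GSK3 and CK1 marks β-catenin for degradation. With a ligand, Dishevelled and Axin are drawn to the membrane, β-catenin builds up and enters the nucleus, and there it joins TCF and LEF factors at target genes. Wnt signals are known for acting on blood stem cells and progenitors, and some ligands act through other branches that do not use β-catenin.

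Signals are given on the log2 scale, differences as MEL minus ES-EP on that scale, and a gene was called where limma's adjusted p, over all genes, was below 0.05. Signals of replicate arrays correlated across genes at r = 0.998 in both MEL and ES-EP. Array medians ran from 5.67 to 5.84 and the median difference over all genes was −0.15, so a member without a change relative to other genes would sit near that value. After quantile normalization, median centring or cyclic loess, that median moved to −0.03, −0.01 and −0.00. As a floor for signal, the 95th percentile of 1027 olfactory receptor genes was used, which was 5.19 in MEL and 5.56 in ES-EP and is called the olfactory level, against which a gene's mean in each cell type was set. Of those olfactory receptor genes, 41 were called higher and 461 lower in MEL, so a call at such signals is common and no direction is drawn for a gene no higher than the level in either cell type. All 9 measured erythroid markers were above the level in both cell types, with summed linear signals of 19130 to 19869 in MEL and 22644 to 23967 in ES-EP. Of these 9, 3 were called higher in MEL (Gata1, Aqp1 and Nfe2) and 5 lower (Klf1, Tal1, Tfrc, Ermap and Rhag), where 20.5% and 43.2% of all genes were. Gata1 differed by 1.14, and the part of the GATA-1/ER fusion in that was not tested. Of the 6 mast cell markers, 2 were above the level in MEL and 3 in ES-EP, with Cpa3, Mcpt4 and Cma1 no higher than it in either, and the list had summed linear signals of 262 to 270 in MEL and 2754 to 3016 in ES-EP. Ms4a2 and Hdc differed by −7.10 and −1.97, and the part of the mast cell markers in the differences below was not tested. Of the 6 stem cell markers, 2 were above the level in MEL and 1, Nanog, in ES-EP, 4 were called lower in MEL with Nanog at −0.39, and Pou5f1 and Zfp42 were below it in both cell types, with summed linear signals of 153 to 161 and 195 to 211.

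Both co-receptors and 4 of the 10 Frizzled receptors were called higher in MEL, and 13 of the 19 ligands were called lower. Only 8 of those 13 ligands were above the olfactory level in at least 1 cell type. Of the 45 members, 13 were called higher in MEL, where 20.5% of all genes were, and 19 were called lower, where 43.2% of all genes were. The members' share was 28.9% higher and 42.2% lower, and their median difference was −0.19. Among the 35 members above the olfactory level in at least 1 cell type, 13 were called higher and 11 lower, or 37.1% and 31.4%, beside 28.7% and 40.0% of the 13117 genes above it. The split of calls moved with the scaling of the arrays, to 14 higher and 14 lower after quantile normalization, 13 and 13 after median centring, and 14 and 10 after cyclic loess. It moved in the same way over all 19938 genes, from 4096 higher and 8622 lower to 5344 and 5974, 5757 and 5644, and 5676 and 5460. All 13 higher calls remained in these 3 rescalings, and 10 of the 19 lower calls did. Among all genes, 4070 of 4096 higher calls and 4936 of 8622 lower calls remained, so the loss of lower calls was not particular to the members. Without the MEL A array, 8 members were called higher, and without MEL B, 12 were called lower. Lrp5, Fzd4 and Fzd7 were called and at least 2-fold higher, as were 5.72% of all genes. No member was 2-fold lower, as 4.27% of all genes were, and the lowest difference was −0.70.

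**Figure D1:**
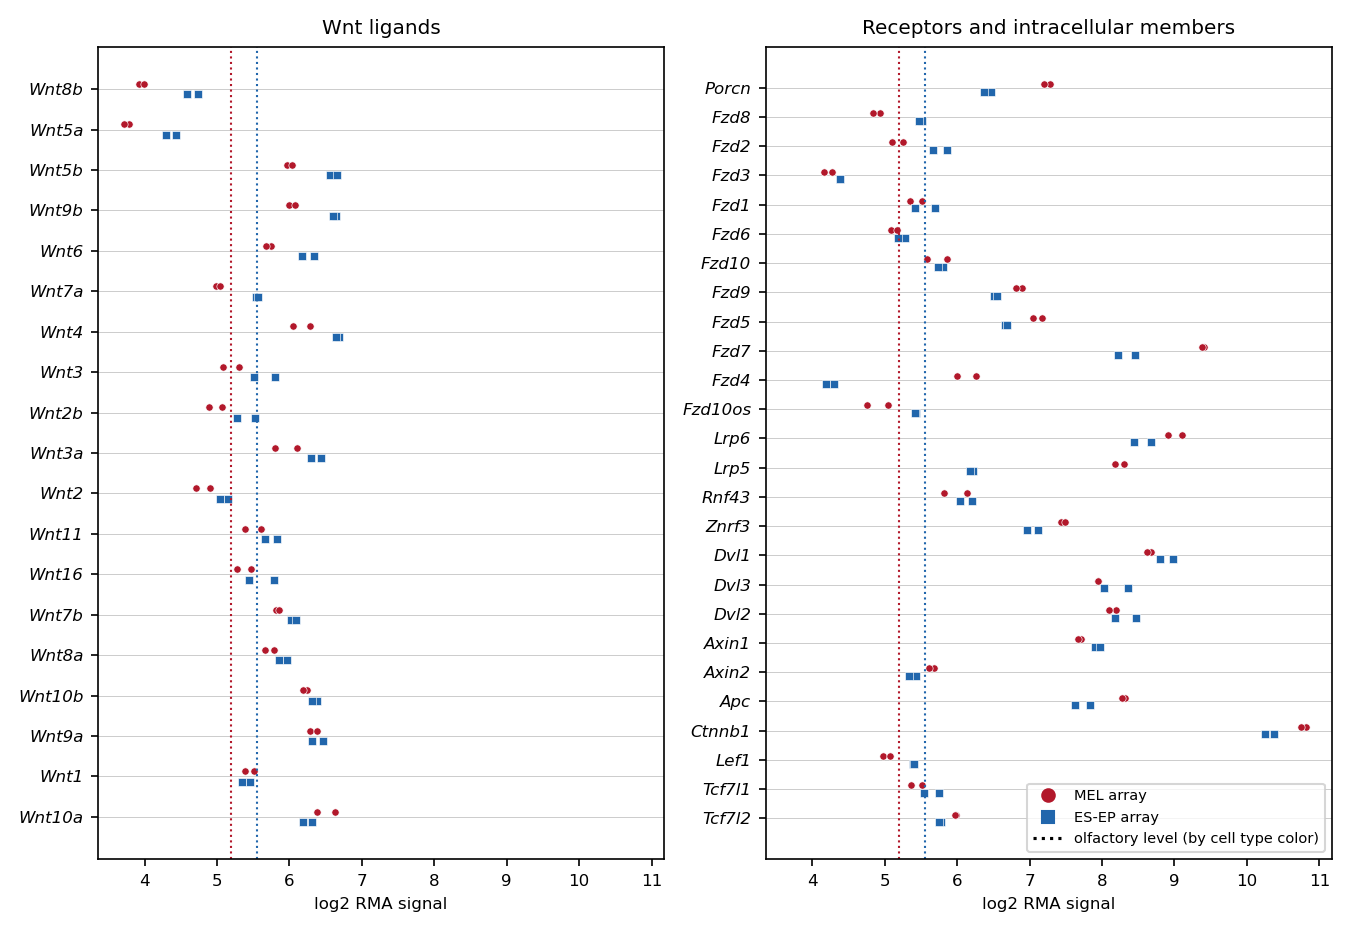
Log2 RMA signal of the 45 members on each array, with the ligands on the left and the other members on the right; circles are the 2 MEL arrays, squares the 2 ES-EP arrays, and dotted lines the olfactory level of each cell type, 5.19 in MEL and 5.56 in ES-EP. The MEL and ES-EP arrays lie far apart for Lrp5, Fzd4 and Fzd7, whereas 5 ligands have means no higher than the dotted lines in either.

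Lrp5 had the largest difference of all members. LRP5 is the co-receptor that binds Wnt together with a Frizzled and whose phosphorylated tail recruits Axin. Its signal was 8.31 and 8.18 in MEL A and B, compared with 6.21 and 6.18 in ES-EP A and B. The arrays of the cell types did not overlap, and the difference was 2.05 ± 0.08 (SE, n = 2 and 2), or 4.14-fold, with a limma adjusted p of 7.41e-09. Relative to the median of all genes it was 2.20. Both cell types were above the olfactory level. Lrp6, the closely related co-receptor, read 9.10 and 8.92 in MEL against 8.44 and 8.67 in ES-EP. It too was called higher in MEL, by 0.46 ± 0.10, although its call was lost without MEL A (adjusted p = 0.0518).

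Among the 10 Frizzled receptors, which bind Wnt through an extracellular cysteine-rich domain, 4 were called higher in MEL, 2 lower and 4 were not called. These counts were 4 higher and 2 lower in each of the 3 rescalings as well. Fzd4, a receptor that besides Wnt also binds the unrelated protein norrin, gave 6.26 and 6.00 in MEL A and B, compared with 4.29 and 4.19 in ES-EP A and B. It was thus above the olfactory level in MEL alone, and the difference of 1.89 ± 0.10 (3.71-fold, adjusted p = 6.26e-08) is measured against an ES-EP signal in the range of background. Fzd4 is also a known endothelial gene, and of the 5 endothelial markers 1, Tek, was called higher in MEL (by 1.87) and 3 lower. Those 5 had summed linear signals of 246 to 251 in MEL and 185 to 200 in ES-EP, while Cdh5, Pecam1 and Kdr were no higher than the olfactory level in either cell type. With 2 of the 5 above the level in MEL and 1 in ES-EP, the part of these markers in the Fzd4 difference was not tested. Bulk RNA also does not tell fewer expressing cells from less RNA per cell, for Fzd4 or any other gene here.

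Fzd7, a receptor used widely in stem and progenitor cells, was strong in both cell types. Its signal was 9.41 and 9.38 in MEL A and B against 8.23 and 8.46 in ES-EP A and B. All MEL values were above all ES-EP values, with a difference of 1.05 ± 0.09 (2.08-fold, adjusted p = 4.45e-06). Smaller differences in the same direction were found for Fzd5 and Fzd9. Fzd5 read 7.18 and 7.05 in MEL against 6.66 and 6.69 in ES-EP, a difference of 0.44 ± 0.08. For Fzd9 the values were 6.89 and 6.81 against 6.50 and 6.55, a difference of 0.32 ± 0.08 whose call was lost without MEL A (adjusted p = 0.0534).

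The 2 Frizzled receptors called lower were Fzd2 and Fzd8. Fzd2 gave 5.25 and 5.10 in MEL A and B, compared with 5.86 and 5.67 in ES-EP A and B, a difference of −0.59 ± 0.09 (1.51-fold, adjusted p = 0.000324). Its MEL mean was just below the olfactory level and its ES-EP mean just above, so the fold rests on a background signal in MEL. Fzd8 was no higher than the level in either cell type, as were Fzd3 and Fzd6. Fzd1, Fzd3, Fzd6 and Fzd10 were not called, with differences from −0.16 to −0.05 that turned positive after cyclic loess. Fzd10os was no higher than the level in either cell type.

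The Frizzled genes with a 2-fold difference both have a proximal promoter in the RefSeq window table of the mouse assembly GRCm38.p6, and they are printed to show the sequence before their starts, as the 250 bases up to the start, 5′ to 3′ on the plus strand of chr7:89404116-89404365 for Fzd4 and chr1:59481897-59482146 for Fzd7. Capitals mark a match to GAGGAA, a longer word that holds GGAA, the core of sites of ETS factors such as PU.1. On this strand a match can also read TTCCTC. The core GGAA outside such a match was not searched for and is not marked.
Fzd4: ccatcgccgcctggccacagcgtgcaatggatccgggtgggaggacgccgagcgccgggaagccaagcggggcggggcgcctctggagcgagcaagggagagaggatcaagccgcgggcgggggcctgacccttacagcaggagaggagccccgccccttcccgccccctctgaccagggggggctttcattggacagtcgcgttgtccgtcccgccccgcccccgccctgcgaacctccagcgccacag
Fzd7: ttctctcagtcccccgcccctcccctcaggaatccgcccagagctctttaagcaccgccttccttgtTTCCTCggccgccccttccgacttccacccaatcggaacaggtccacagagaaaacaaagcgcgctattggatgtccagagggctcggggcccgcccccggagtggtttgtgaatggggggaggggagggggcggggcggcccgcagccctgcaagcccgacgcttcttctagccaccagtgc
Fzd4 held no match to GAGGAA and Fzd7 1. In all, 30 members had a window, 39 windows with alternative starts. GAGGAA on either strand stood in the windows of Fzd7, Fzd9, Lef1, Tcf7l2, Wnt11 and Wnt16, 6 of the 39, and in 23.3% of all 32851 windows. The TCF-type letters CTTTGAA or CTTTGAT stood in 2 of the 39, those of Wnt5b and Wnt11, and in 7.48% of all. The GATA-type letters AGATAA or TGATAA stood in 5 of the 39, of Fzd1, Lef1, Tcf7l2, Wnt2 and Wnt8b, and in 16.6% of all. No matches of different types overlapped in these windows, and a match describes letters, not binding.

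Porcn encodes Porcupine, the enzyme of the endoplasmic reticulum that attaches palmitoleate to Wnt ligands before they leave the cell. It read 7.29 and 7.20 in MEL A and B, compared with 6.47 and 6.38 in ES-EP A and B. Both MEL arrays were above both ES-EP arrays, by 0.82 ± 0.08 (1.77-fold, adjusted p = 1.23e-05). Znrf3 and Rnf43 encode membrane ubiquitin ligases that remove Frizzled receptors from the cell surface. Znrf3 was higher in MEL, at 7.43 and 7.48 against 6.96 and 7.11, a difference of 0.42 ± 0.09. Rnf43 was not called, with overlapping arrays and a difference of −0.14 ± 0.11.

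**Figure D2:**
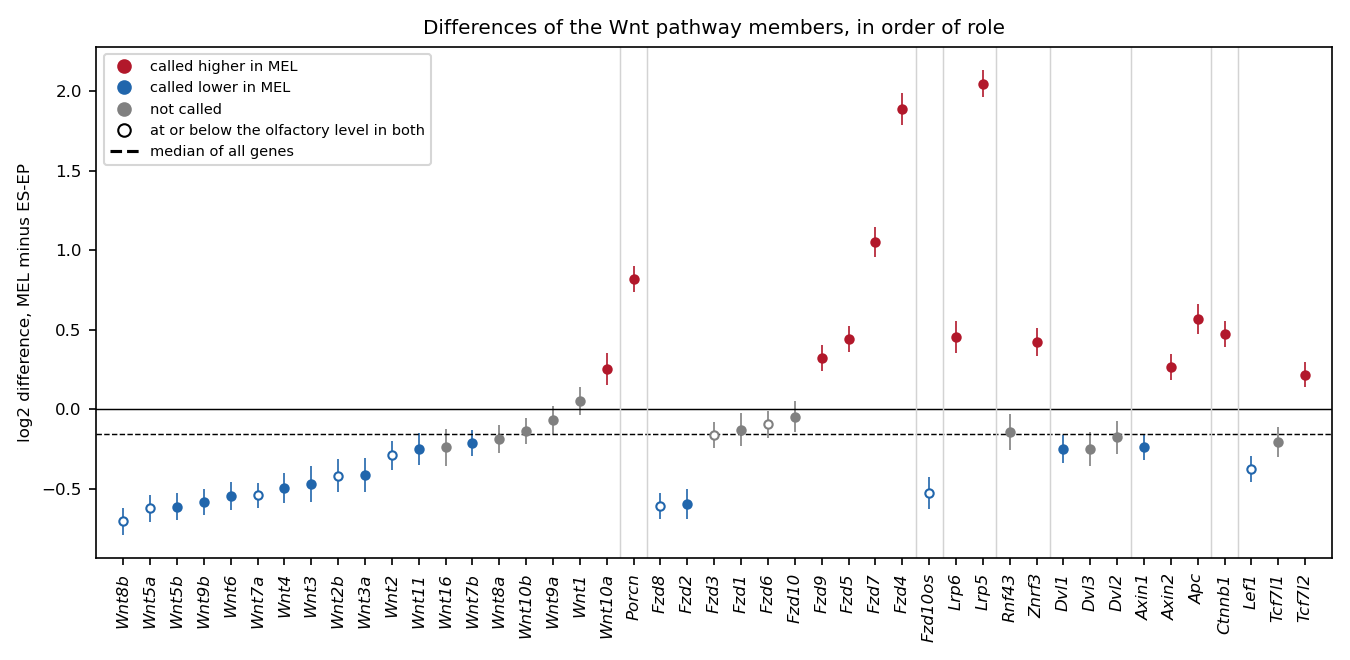
Difference of each member on the log2 scale, MEL minus ES-EP, ordered by role from ligands on the left to TCF factors on the right; bars are the SE of the limma fit, color gives the call, open circles are members no higher than the olfactory level in either cell type, and the dashed line is the median of all genes at −0.15. Most ligands lie below the dashed line, whereas Lrp5 at 2.05, Fzd4 at 1.89, Fzd7 at 1.05 and Porcn at 0.82 stand highest.

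The 19 ligands were dim. Of these, 1 was called higher in MEL, 13 were called lower and 5 were not called, with a median difference of −0.41 and a range from −0.70 to 0.26. Fewer were called lower once the arrays were rescaled, with 2 higher and 8 lower after quantile normalization, 1 and 9 after median centring, and 2 and 7 after cyclic loess. The ligands' median became −0.20 after quantile normalization, −0.26 after median centring and −0.17 after cyclic loess. Only 14 ligands were above the olfactory level in at least 1 cell type, and the other 5, Wnt2, Wnt2b, Wnt5a, Wnt7a and Wnt8b, were all called lower but have no direction here. The lower share of 68.4% among the ligands stands beside 44.9% among the olfactory receptor genes, whose median difference was −0.20.

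Wnt5b, a ligand of mainly β-catenin-independent signaling, met the 1.5-fold limit set for giving full values. Its signal was 5.97 and 6.04 in MEL A and B against 6.56 and 6.66 in ES-EP A and B. The groups did not overlap, and the difference was −0.61 ± 0.08 (1.53-fold, adjusted p = 0.000105), or −0.46 relative to the median of all genes. Wnt9b, Wnt6 and Wnt4, ligands best known from kidney and other epithelial development, were also above the level in both cell types and called lower, by −0.58 ± 0.08, −0.54 ± 0.09 and −0.49 ± 0.09. Both probe sets of Wnt4 went the same way, the second with a difference of −0.68. These 4 ligands kept their calls in all 3 rescalings and without any 1 array.

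The remaining called ligands above the level did not hold as well. Wnt3 and Wnt3a, founding ligands of β-catenin signaling, differed by −0.47 ± 0.11 and −0.41 ± 0.11, Wnt3 with a MEL mean just below the olfactory level. The call of Wnt3 was lost after quantile normalization (adjusted p = 0.075) and cyclic loess (0.122) and without MEL A (0.0702). That of Wnt3a was lost after median centring (0.0638) and cyclic loess (0.0906) and without MEL B (0.0914) or ES-EP A (0.059). Wnt11 and Wnt7b differed by −0.25 ± 0.10 and −0.21 ± 0.08, and neither was called in any of the 3 rescalings. Wnt11 was also lost without MEL B (0.34) or ES-EP A (0.243), and Wnt7b without any 1 of the 4 arrays. Wnt10a was the ligand called higher in MEL, at 6.63 and 6.38 against 6.31 and 6.19. Its difference of 0.26 ± 0.10 was not called without MEL A (adjusted p = 0.34), ES-EP A (0.0601) or ES-EP B (0.195). Wnt1, Wnt8a, Wnt9a, Wnt10b and Wnt16 were not called, with differences from −0.24 to 0.05.

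**Figure D3:**
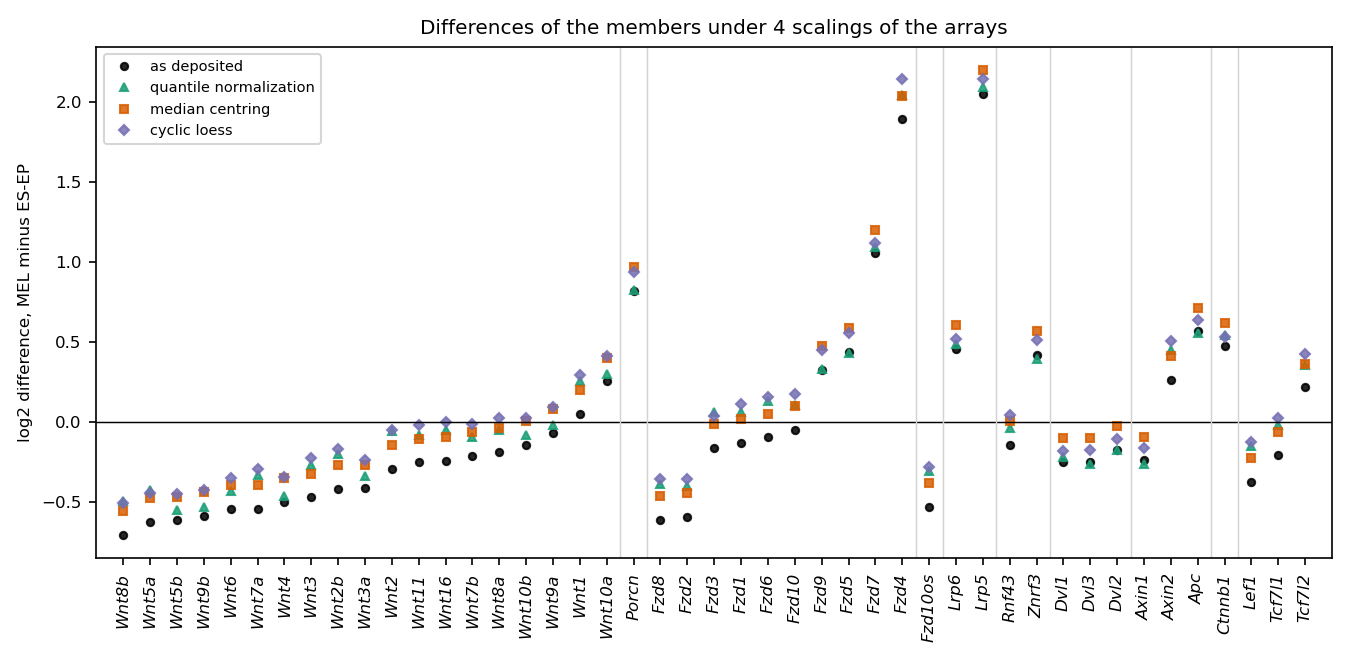
Difference of each member on the log2 scale, MEL minus ES-EP with the deposited values and after quantile normalization, median centring and cyclic loess, in the same order by role. Lrp5, Fzd4, Fzd7 and Porcn stay well above 0 in all 4 scalings, while ligands such as Wnt2, Wnt11 and Wnt7b move up to near 0, and Wnt8a, Wnt9a and Wnt10b cross it after cyclic loess.

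Inside the cell, Ctnnb1, Apc and Axin2 were called higher in MEL and Axin1 lower. Ctnnb1, which encodes β-catenin, gave 10.82 and 10.75 in MEL A and B, compared with 10.25 and 10.37 in ES-EP A and B. The arrays did not overlap and the difference was 0.47 ± 0.08 (1.39-fold, adjusted p = 0.000653). Apc, the large scaffold of the destruction complex, read 8.32 and 8.28 against 7.63 and 7.84, a difference of 0.57 ± 0.09 (1.48-fold, adjusted p = 0.00037). Both kept their calls in the 3 rescalings and without any 1 array. Axin1, the limiting scaffold of the complex, went the other way by −0.24 ± 0.08, a call that was lost after median centring and cyclic loess and without MEL A (adjusted p = 0.0717), MEL B (0.12) or ES-EP B (0.0921).

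Axin2, a scaffold that is itself a widely used target gene of β-catenin, read 5.69 and 5.61 in MEL against 5.43 and 5.33 in ES-EP. The difference was 0.27 ± 0.08 (adjusted p = 0.017), measured against an ES-EP signal below the olfactory level. In the 3 rescalings Axin2 stayed called higher, by 0.45, 0.42 and 0.51. Without MEL A, MEL B or ES-EP B the call was lost (adjusted p = 0.111, 0.0518 and 0.0862). The 3 Dishevelled genes, whose products carry the signal from Frizzled to Axin, had differences of −0.25 ± 0.09 for Dvl1, −0.25 ± 0.11 for Dvl3 and −0.17 ± 0.10 for Dvl2. With the deposited values Dvl1 was called, and its call was lost after median centring and cyclic loess and without MEL A (adjusted p = 0.0897), MEL B (0.163) or ES-EP B (0.183). Dvl3 (adjusted p = 0.0654) became called lower after quantile normalization (0.0384), with dim genes left out (0.0459), with the array letters A and B fitted as a replicate block (0.0272), with trend and robust eBayes (0.0463) and without ES-EP A (0.00645). Dvl2 did so without ES-EP A (0.0229).

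The TCF factors, which bring β-catenin to DNA, showed no member with a difference that held in every setting and had signal above background. Tcf7l2 (also called TCF4) read 5.98 and 5.97 in MEL A and B, compared with 5.77 and 5.75 in ES-EP A and B. Its arrays did not overlap, yet the difference was small, 0.22 ± 0.08 (1.16-fold, adjusted p = 0.0321), and the call was lost on leaving out any 1 array, with adjusted p from 0.0623 to 0.116. The replicate block gave an adjusted p of 0.0537. In the 3 rescalings Tcf7l2 stayed called higher, by 0.36, 0.37 and 0.43. Lef1 was no higher than the olfactory level in either cell type, with signals from 4.97 to 5.40 over the 4 arrays. Of the 7 T and B lymphoid markers, a compartment in which Lef1 is known to be high, 2 were above the level in MEL and 3 in ES-EP, and 3 were called lower, with summed linear signals of 231 to 245 and 284 to 287. Tcf7l1, the member of the family known best as a repressor, was not called at −0.21 ± 0.10 and became called without ES-EP A (adjusted p = 0.034).

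Beyond the members, 91 of 92 other genes listed for the pathway were measured. Of these, 21 were called higher in MEL and 32 lower, or 23.1% and 35.2% beside the 20.5% and 43.2% of all genes, with a median difference of −0.12, and 8 were at least 2-fold higher and 4 at least 2-fold lower. The calls became 25 higher and 21 lower after quantile normalization, 30 and 20 after median centring, and 29 and 19 after cyclic loess. All 21 higher calls and 18 of the 32 lower calls remained in these 3 rescalings, beside 4070 of 4096 and 4936 of 8622 among all genes. The counts over all 19938 genes became 5344 higher and 5974 lower, 5757 and 5644, and 5676 and 5460.

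Wls encodes Wntless, the carrier that takes acylated Wnt ligands to the cell surface. Its signal was 3.91 and 4.15 in MEL A and B, compared with 7.03 and 7.10 in ES-EP A and B. MEL was below the olfactory level, so the difference of −3.04 ± 0.10 (8.21-fold, adjusted p = 9.72e-10) is against background. Porcn and Wls, which act one after the other on the same ligands, thus differed in opposite directions. The other secretion gene listed, Notum, which removes the lipid from Wnt outside the cell, differed by 0.00 ± 0.08. The 250 bases before the start of Wls, at chr3:159839400-159839649 on the plus strand of GRCm38.p6, are shown for this gene's place in ligand release, with its 2 matches to GAGGAA in capitals.
Wls: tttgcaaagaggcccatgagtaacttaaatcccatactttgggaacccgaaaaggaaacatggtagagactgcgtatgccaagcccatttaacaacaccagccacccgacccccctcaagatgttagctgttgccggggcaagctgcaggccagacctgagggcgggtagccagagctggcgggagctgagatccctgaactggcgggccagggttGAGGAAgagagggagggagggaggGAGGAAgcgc

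Of the 16 other genes of the destruction complex and its kinases, 7 were called higher (43.8%), 2 lower (12.5%) and 7 were not called. All 16 were above the olfactory level in both cell types. Of the 13117 genes above it in at least 1 cell type, 28.7% were called higher and 40.0% lower. Csnk1e, which encodes the ε form of casein kinase 1 and acts on Dishevelled and LRP, read 9.46 and 9.37 in MEL A and B, compared with 6.62 and 6.42 in ES-EP A and B. The gap was 2.90 ± 0.09, or 7.45-fold (adjusted p = 1.04e-09). Gsk3a, 1 of the genes for the kinase GSK3, was higher by 1.04 ± 0.10 (9.59 and 9.57 against 8.40 and 8.68), whereas Gsk3b differed by −0.04 ± 0.08 and was not called. Fbxw11, a recognition subunit of the ubiquitin ligase that takes phosphorylated β-catenin, was higher by 0.81 ± 0.09. In the rescalings this list gave 8 higher and 2 lower, 10 and 1, and 8 and 2.

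The list of nuclear partners of β-catenin held 7 higher (36.8%), 5 lower (26.3%) and 7 uncalled genes of 19. All but Sox17, 1 of the 5 lower, were above the olfactory level in at least 1 cell type. Of the 13117 genes above it, 28.7% were called higher and 40.0% lower. Bcl9, the adaptor that links β-catenin to Pygopus, read 9.35 and 9.36 in MEL against 6.96 and 7.30 in ES-EP, a difference of 2.23 ± 0.11 (4.69-fold). Ctnnbip1, an inhibitor that keeps β-catenin from TCF, was also higher, at 7.76 and 7.65 against 6.49 and 6.36, by 1.28 ± 0.09. The corepressor gene Ctbp2 was higher by 1.17 ± 0.08 (8.95 and 8.85 against 7.69 and 7.78). Hbp1, a repressor that can block TCF at target genes, was lower in MEL, at 7.84 on both arrays against 9.82 and 9.80, by −1.97 ± 0.08 (3.92-fold). Pygo1, a Pygopus gene, and Crebbp, a coactivator, were lower too, by −0.84 ± 0.08 and −0.71 ± 0.08. After the 3 rescalings the counts were 7 higher and 3 lower, 10 and 4, and 10 and 3.

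Planar polarity and other β-catenin-independent genes gave 2 higher (14.3%), 8 lower (57.1%) and 4 uncalled of 14. Of all genes, 20.5% were called higher and 43.2% lower. Among the 8 lower, 6 were above the olfactory level in at least 1 cell type, and the others have no direction here. In the rescalings this list gave 2 higher with 4, 5 and 4 lower. Those higher in MEL were the membrane proteins of polarity Vangl1, at 8.63 and 8.60 against 7.09 and 7.17 (1.49 ± 0.08, 2.80-fold), and Vangl2, at 7.31 and 7.39 against 5.72 and 6.03 (1.47 ± 0.11, 2.78-fold). Prickle1, a cytoplasmic partner of Vangl proteins, was lower in MEL, at 5.27 and 5.35 against 7.30 and 7.40 (−2.04 ± 0.08, 4.12-fold). Genes whose products are known to work in 1 complex therefore lay on opposite sides.

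Wnt inhibitors, 16 in number and including the membrane proteins Kremen1, Kremen2 and Apcdd1, had 3 called higher (18.8%) and 6 lower (37.5%). Those shares were 20.5% and 43.2% among all genes. The split turned to 5 higher and 3, 2 and 2 lower in the rescalings, and 7 of the 16 were no higher than the olfactory level in either cell type. The R-spondins, which stabilize Frizzled by engaging Znrf3 and Rnf43, and their LGR receptors had 3 of 7 called lower, a share of 42.9% close to the 43.2% of all genes, and 4 uncalled. Lgr4 differed by −0.51 ± 0.09. It was above the level on all arrays, at 8.04 and 8.22 in MEL against 8.66 and 8.62 in ES-EP.

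Genes known as targets or feedback regulators of β-catenin gave 2 higher (11.8%), 7 lower (41.2%) and 8 uncalled of 17. Of all genes, 20.5% were called higher and 43.2% lower, so the lower share was near that of all genes. Among the 7 lower, 5 were above the olfactory level in at least 1 cell type. The rescalings gave 3 higher with 5, 4 and 4 lower. Jun, a component of the AP-1 factor, read 5.06 and 4.81 in MEL A and B, compared with 7.47 and 7.58 in ES-EP A and B, a difference of −2.59 ± 0.10 (6.03-fold) against a MEL signal below the olfactory level. Jun responds to many signals besides Wnt. Cd44, an adhesion receptor, and Tnfrsf19 were lower by −0.77 ± 0.08 and −0.58 ± 0.09, and Id2, an inhibitor of helix-loop-helix factors, was higher by 0.42 ± 0.09 against an ES-EP mean just below the level. Myc, Ccnd1 and Nkd1 were not called, with differences of −0.15 ± 0.08, 0.12 ± 0.09 and −0.18 ± 0.08. Ccnd1, with an ES-EP mean below the olfactory level, became called higher after quantile normalization (0.32), median centring (0.27) and cyclic loess (0.36). Myc and Nkd1 stayed uncalled in these rescalings.

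**Figure D4:**
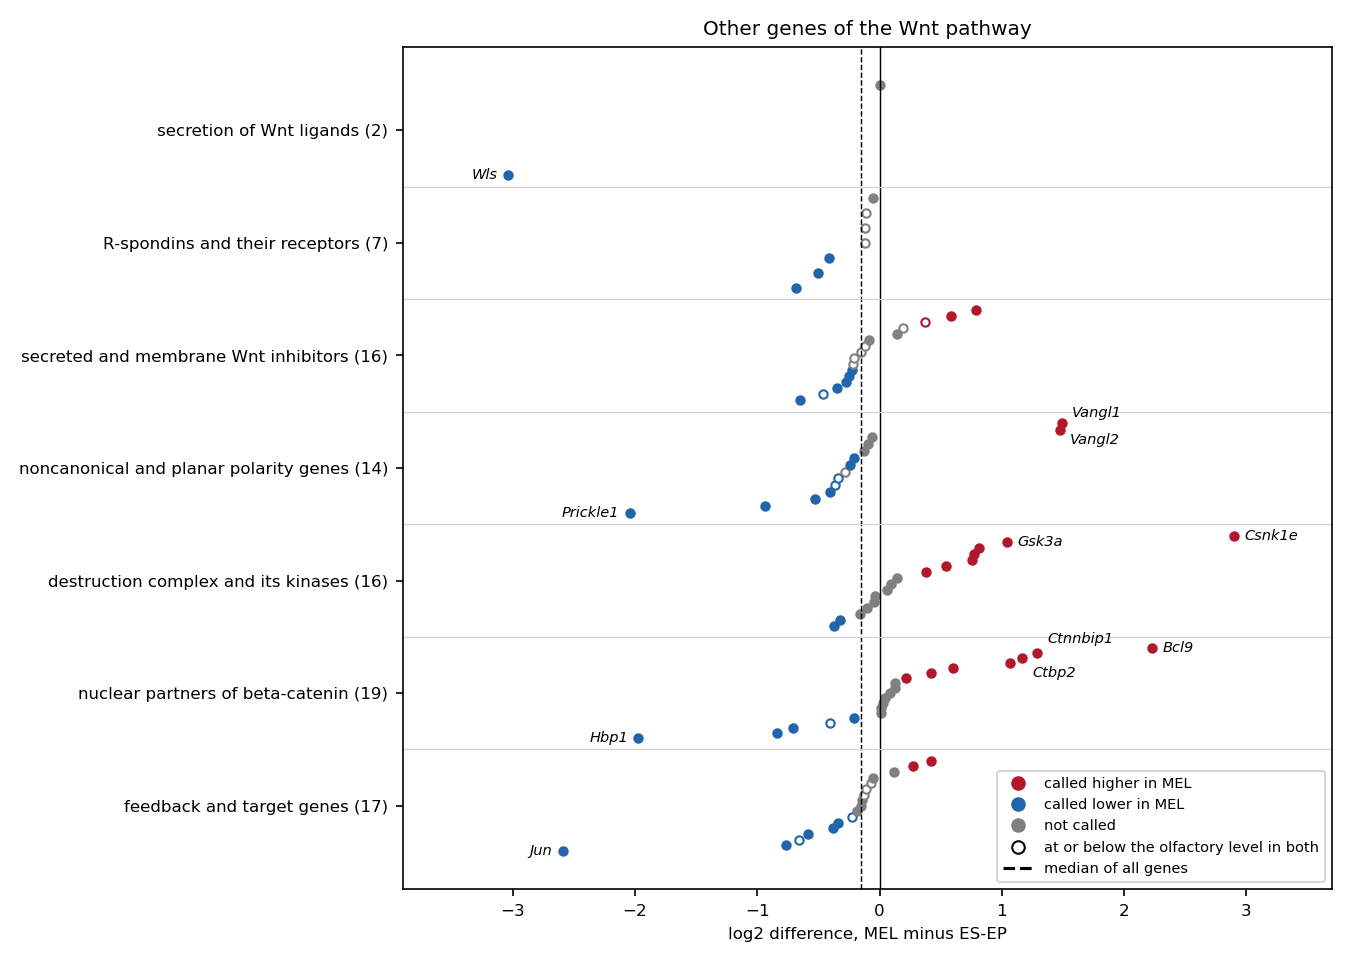
Difference on the log2 scale, MEL minus ES-EP, for the 91 other measured pathway genes, grouped by role with the number of genes in brackets and ranked within each group; color gives the call, open circles are genes no higher than the olfactory level in either cell type, and the dashed line is the median of all genes. Wls at −3.04, Jun at −2.59, Prickle1 at −2.04 and Hbp1 at −1.97 lie far to the left, and Csnk1e at 2.90 and Bcl9 at 2.23 far to the right.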

How the data were processed

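RNA from 2 MEL and 2 ES-EP cultures was hybridized to Affymetrix Mouse Gene 1.0 ST arrays. Per the labels, the authors computed RMA values in GeneSpring GX (version not given in the sources used here), and the deposited values are on the log2 scale, 1 column per array, for 35557 probe sets. RMA corrects background and pools probes, so weak signals on an array end near a floor and fold changes of dim genes are compressed. The olfactory level used here was not the same in the cell types, 5.19 in MEL and 5.56 in ES-EP. No detection calls were used, and the number of arrays limits the precision.

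Of the probe sets, 21789 had a single symbol in the array's gene table, 1621 had several and 12147 were unnamed here. Those with several symbols and the unnamed ones were left out. By Entrez number 21698 of the named ones matched a current gene. Each of the 19938 genes was represented by its brightest probe set, by mean signal over the 4 arrays. Differences were tested two-sided with limma 3.58.1 in R 4.3.3 (lmFit and eBayes without a block, 2 residual and 8.20 prior degrees of freedom), with Benjamini-Hochberg adjustment over all genes at 0.05. ± is the SE of that fit. An exact permutation of 2 against 2 arrays cannot give a p below 0.333. Of these steps, only the limma fit was tried on simulated data, which held no shift between arrays. Replicates were duplicate cultures, so p-values measure only the spread between these.

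The members, gene lists and the olfactory level were chosen with earlier results of these data known. All members are named, with full values for those called, at least 1.5-fold different and above the olfactory level in at least 1 cell type, and shorter values for others. Of the other pathway genes, up to 4 per list were named, those with the largest called differences of at least 2-fold above that level; Notum, Gsk3b, Fbxw11, Pygo1, Crebbp, Kremen1, Kremen2, Apcdd1, Lgr4, Cd44, Tnfrsf19, Id2, Myc, Ccnd1 and Nkd1 were added after their values were seen. Alternatives were quantile normalization, median centring, cyclic loess, a filter on dim genes, averaging the probe sets of a gene, a replicate block, eBayes with trend and robust, testing against a 1.2-fold difference, and omission of each array in turn. Promoter windows came from RefSeq. Tables and figures used matplotlib 3.10.9 and pandas 2.3.3 under Python 3.11.15.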

Additional observations from a re-analysis of the deposited data

How the results depend on the processing

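The number of members called higher in MEL, 13, fell to 6 in the test against a 1.2-fold difference and was 8 to 11 when 1 array was left out, the lowest without MEL A. The 19 called lower became 10 after cyclic loess, 7 with dim genes left out (20 members tested), 9 against a 1.2-fold difference, and 12 to 19 when 1 array was left out, the lowest without MEL B. For the other pathway genes called lower, 32, the counts were 21 after quantile normalization, 20 after median centring, 19 after cyclic loess, 12 with dim genes left out and 14 against a 1.2-fold difference. Over all genes, the 8622 called lower became 5974, 5644 and 5460 in the 3 rescalings. They became 3876 with dim genes left out (9969 genes tested) and 3903 against a 1.2-fold difference, where the 4096 called higher became 2488. The median difference of the members, −0.19, became −0.050, −0.039 and 0.026 in the 3 rescalings and 0.10 with dim genes left out, and ran from −0.22 to −0.14 when 1 array was left out.

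Signs turned for members that were not called. After quantile normalization these were Fzd1 (0.063), Fzd10 (0.11), Fzd3 (0.061) and Fzd6 (0.13). After median centring they were Fzd1 (0.021), Fzd10 (0.10), Fzd6 (0.054), Rnf43 (0.0057), Wnt9a (0.085) and Wnt10b (0.010). After cyclic loess they were Fzd1 (0.11), Fzd10 (0.17), Fzd3 (0.041), Fzd6 (0.16), Rnf43 (0.047), Tcf7l1 (0.030), Wnt8a (0.026), Wnt9a (0.093) and Wnt10b (0.027). With 1 array left out, Fzd1 ran from −0.26 to 0.0039, Fzd10 from −0.18 to 0.089, Rnf43 from −0.30 to 0.019, Wnt1 from −0.0094 to 0.11 and Wnt9a from −0.14 to 0.013. Wnt1, uncalled with the deposited values, was called higher after quantile normalization (0.25) and cyclic loess (0.30). The cause of these shifts was not tested.

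The letters A and B do not pair the cultures in the labels, and deviations of the A arrays correlated at −0.04 across genes. With the letters as a replicate block 12 members were called higher and 20 lower, Tcf7l2 (adjusted p = 0.0537) and Wnt7b (0.0621) losing their calls and Dvl3 (0.0272) and Wnt16 (0.0329) becoming called lower. Signal over background limits the ligands, Fzd2, Fzd4 in ES-EP, Wls and Jun in MEL, and Lef1, whose differences depend on the floor that RMA leaves.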
